A study of Mus musculus with 6 samples.

Results

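A set of 32 heart muscle genes, of 18193 genes that have a probe set with a single symbol, was followed in mouse lung after expression of a dominant-negative BMPR2 in smooth muscle. They were taken as a named set: every probe set, meaning a group of short array probes for 1 transcript, was used if its only platform gene symbol was one of the 32. This gave 61 probe sets. The set holds the motor and thick filament proteins, the thin filament, the Z disc, energy supply, small chaperones, membrane proteins and heart transcription factors.

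The sarcomere is the contractile unit of striated muscle. Myosin thick filaments pull on actin thin filaments, the troponin complex makes the pull depend on calcium, titin spans from the Z disc to the M band, and the Z disc anchors the thin filaments. Healthy mouse lung has such muscle too, because a sleeve of atrial-type heart muscle runs along the pulmonary veins, and lung samples can also carry attached heart tissue. BMPR2 is a receptor for bone morphogenetic proteins and is mutated in many families with heritable pulmonary arterial hypertension.

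Each array carried whole-lung RNA pooled from 3 mice, and 6 pools gave 1 female and 1 male pool in each of 3 groups. The first group was SM22-dnBMPR2 inducible transgenic mice activated for 8 weeks, and the second was the same transgenic kind activated for 1 week. In these mice the SM22 promoter, of a smooth muscle gene, drives the rtTA transactivator that switches on the dominant-negative receptor. The last group was the controls, whose male pool is labelled SM22-rtTA only and whose female pool is labelled only by its strain, FVB/N. The series notes describe controls as carrying the transactivator alone, and state that right ventricular pressure was raised in all other mice. Ages, the controls' own treatment and the number of transgenic lines are not given in the sources used here, and rapid freezing and column extraction are described for the 4 transgenic pools only. Both durations were set against the same 2 control pools.

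The authors deposited linear intensities, with pool medians of 50.5 and 52.9 at 8 weeks, 60.2 and 57.1 at 1 week, and 63.4 and 61.4 in controls. All values below are log2 intensities after quantile normalisation, with the female pool first and the male pool second. A value of 3.95 is the lowest the scale allows, so a level printed as 3.95 is an upper limit. Surfactant protein C (Sftpc), which marks the alveolar epithelium of lung, read 13.17 or more in all 6 pools. Bmpr2 itself read 11.79 and 11.84 at 8 weeks, 11.85 and 12.14 at 1 week, and 11.99 and 12.15 in controls; whether these probes read the transgene is not given in the sources used here. Pools of opposite sex stand as the 2 replicates of a group, so sex is a term in every fit. In the group comparisons the p-values rest on how unlike the female and male differences were, joined with a variance shared over all tested probe sets. They do not rest on a spread between pools of the same sex.

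Several genes of the set are textbook targets of serum response factor (SRF), which binds the CArG box, so their promoters were searched for this and other motifs of muscle regulators. RefSeq promoters (GRCm38.p6) were found for 27 of the 32 genes. A CArG box lay within 250 bases before the start of 6 of the 27 (22.2%), against 1.6% of 27025 genes with a promoter in the table. The M-CAT site CATTCC, bound by TEAD factors, was in 9 of 27 (33.3%), against 14.4% of all genes. The GATA site AGATAA was in 6 of 27 (22.2%), against 11.4%, and the MEF2 site was in 3 (11.1%), against 3.4%. The exact run TATAAA, read on the gene's own strand, was in 0 of 27, against 8.9% of all genes. Variants of the TATA box were not counted, such as the TATATAA before Ckm, Tnnc1 and Ankrd1. The 0 therefore does not mean that these genes lack a TATA box. Every other motif was read on both strands, and a TATA box can share letters with a MEF2 site. A match is a run of letters and says nothing of binding in these lungs. The 150 bases just before the start are shown for 3 genes with a CArG box and a role in the contractile filament, with the matched motifs in capitals.
Actc1 (chr2:114052876-114053025, minus strand): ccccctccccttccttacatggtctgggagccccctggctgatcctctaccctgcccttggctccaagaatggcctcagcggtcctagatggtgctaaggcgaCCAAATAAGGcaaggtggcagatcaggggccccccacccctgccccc
Myl7 (chr11:5898783-5898932, minus strand): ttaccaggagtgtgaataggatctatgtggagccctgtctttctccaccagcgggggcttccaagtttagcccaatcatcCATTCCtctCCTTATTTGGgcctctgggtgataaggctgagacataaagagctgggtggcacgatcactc
Myl3 (chr9:110763528-110763677, plus strand): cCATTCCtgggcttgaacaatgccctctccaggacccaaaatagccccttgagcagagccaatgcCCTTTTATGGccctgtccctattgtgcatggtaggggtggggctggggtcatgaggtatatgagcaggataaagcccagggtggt
In Actc1, cardiac alpha-actin, the capitals are a CArG box whose first base is 47 before the start. Myl7, the atrial regulatory light chain, has its CArG box 61 bases before the start and an M-CAT site 70 before it. In Myl3, the ventricular essential light chain, the CArG box is 85 bases and the M-CAT site 149 bases before the start. The other genes with a CArG box in their 250 bases were Ldb3, Myom1 and Nebl.

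After 8 weeks of activation most of the heart muscle genes stood below both controls. The median difference over the 32 genes, each at its brightest probe set, was -1.24 on the log2 scale, against 0.06 over all 18193 genes. Both 8-week pools were below both control pools for 24 of the 32 genes, and above both for 0. Over all genes 11.9% had both 8-week pools lower, and 4312 of 18193 had both higher. Mean levels were lower by 2-fold or more for 18 of the 32, against 0.77% of all genes. Those 18 made up 12.9% of the 140 genes with such a difference, and 56.2% of the heart muscle genes. Counted from the most negative mean difference, Ttn ranked 1, Myh6 ranked 2 and Myom2 ranked 4 among all genes, and 9 of the set were among the 20 lowest. The set was chosen with earlier results of these data known, so these ranks and shares are a description and not a test. In bulk lung RNA, fewer muscle cells and less RNA per cell cannot be told apart.

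By limma, adjusted over all 27022 tested probe sets, 2 of the 49 tested heart muscle probe sets fell (1 each of Ttn and Myh6, both with adjusted p = 0.047) and 0 rose. The same rule called 0.389% of all tested probe sets lower, and the share called higher was not counted. In all, 11 of the 49 had an adjusted p under 0.1, and 34 of 49, from 23 genes, were lower at an unadjusted p under 0.05; the share of all probe sets past that p in either direction was 23.0%. The count of 2 depended on the settings: it was 0 without the expression filter, and 15 with limma's intensity trend and robust variance. The share of all probe sets called in those settings was not counted, so these counts have no background beside them. With 1 pool left out only the size of the difference is given, since 1 group then holds 1 pool. Without the 8-week female pool the median of the set was -0.57, and without the control female pool it was -0.76.

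**Figure D1:**
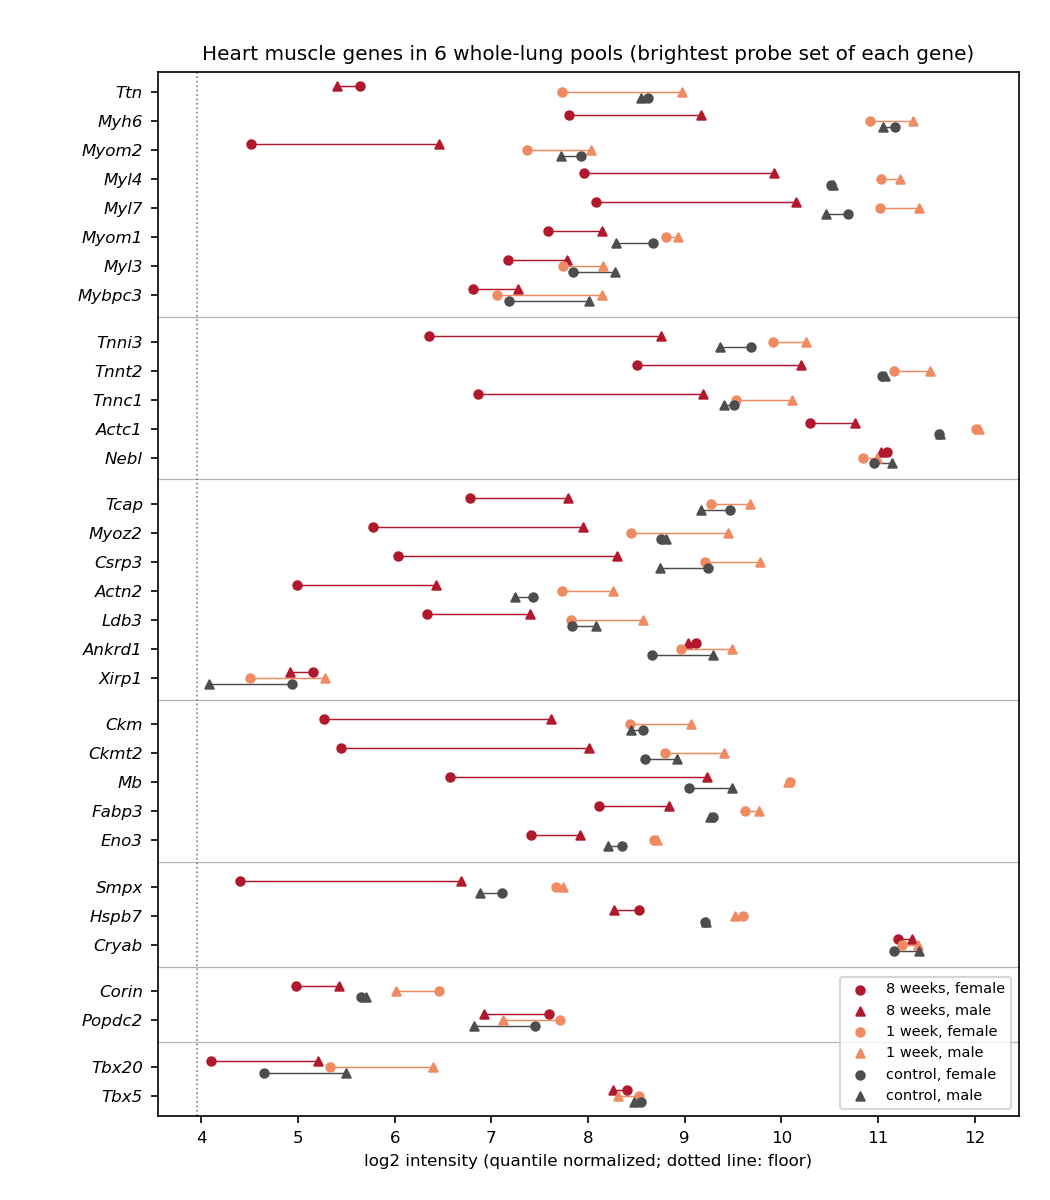
Log2 intensity (horizontal axis) of each heart muscle gene at its brightest probe set, with genes down the page by role; circles are female pools, triangles male pools, and a line joins the pools of a group (8 weeks red and uppermost, 1 week orange, control grey). Most genes are lowest in the 8-week female pool and next lowest in the 8-week male pool, while genes such as Cryab, Nebl, Ankrd1 and Popdc2 are near their control level.

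The thick filament and titin genes had a median difference of -1.52 at 8 weeks, and 7 of these 8 genes had both 8-week pools below both controls. Ttn, the giant spring that spans the sarcomere, was measured by its called probe set at 3.95 and 5.63 at 8 weeks, 7.47 and 9.23 at 1 week, and 8.32 and 8.92 in controls. The 8-week pools lay below all other pools, and the female value was at the lower limit. That probe set fell by at least 14.2-fold (log2 difference -3.83 ± 0.32 SE, limma adjusted p = 0.047). At its brightest probe set Ttn read 5.64 and 5.40 at 8 weeks, 7.73 and 8.98 at 1 week, and 8.62 and 8.55 in controls. Here the 8-week pools of both sexes lay close together, with a difference of -3.06 ± 0.39 and an adjusted p of 0.0589, and the other tested Ttn probe sets ran between -3.83 and -1.31.

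Myh6 encodes alpha-myosin heavy chain, the main motor of atrial and adult mouse heart muscle. Its called probe set read 3.95 and 3.95 at 8 weeks, 6.22 and 6.38 at 1 week, and 6.02 and 6.10 in controls. Both 8-week pools were at the lower limit, so the decrease was at least 4.31-fold (-2.11 ± 0.13, adjusted p = 0.047), and the spread within that group could not be seen. With the lower limit set at the 40th percentile its adjusted p was 0.0542. The brighter Myh6 probe set read 7.80 and 9.17 at 8 weeks, 10.91 and 11.36 at 1 week, and 11.18 and 11.06 in controls. It was clear of the limit in all pools, with a difference of -2.63 ± 0.37, or 6.19-fold, and an adjusted p of 0.0632. As deposited, that probe set had intensities of 217 and 542 at 8 weeks, 1991 and 2610 at 1 week, and 2439 and 2110 in controls.

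None of the other thick filament genes passed the threshold. Myom2, an M-band protein that links myosin filaments, differed by -2.34 ± 0.51 (adjusted p = 0.107), with -3.41 in females and -1.27 in males. The atrial light chain Myl4 differed by -1.58 ± 0.51 (adjusted p = 0.173) and its partner Myl7 by -1.46 ± 0.56 (adjusted p = 0.216). In both light chains the female difference was large and the male one small: -2.55 and -0.60 for Myl4, and -2.61 and -0.31 for Myl7. Myom1, another M-band protein, differed by -0.61 and Myl3 by -0.58, though the other Myl3 probe sets gave -1.95 to -1.13. Mybpc3, cardiac myosin-binding protein C, differed by -0.56, and its 8-week and control pools overlapped.

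The thin filament genes had a median difference of -1.43, with both 8-week pools below both controls for 4 of 5. Tnni3, the inhibitory subunit of cardiac troponin, read 6.35 and 8.76 at 8 weeks, 9.91 and 10.25 at 1 week, and 9.69 and 9.37 in controls. The difference of -1.98 ± 0.66 (adjusted p = 0.182) came to -3.34 in females and -0.61 in males. Tnnt2, the subunit that ties troponin to tropomyosin, read 8.51 and 10.20 at 8 weeks, 11.17 and 11.54 at 1 week, and 11.04 and 11.07 in controls, a difference of -1.70 ± 0.42 (adjusted p = 0.124). The second tested Tnnt2 probe set gave -1.76. The calcium-binding subunit Tnnc1 differed by -1.43 (adjusted p = 0.239), with -2.64 in females and -0.21 in males, and by -2.47 to -0.39 with 1 pool left out.

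Cardiac alpha-actin, Actc1, showed a smaller but even difference. Its levels were 10.30 and 10.76 at 8 weeks, 12.02 and 12.05 at 1 week, and 11.63 and 11.65 in controls, so that no 2 groups overlapped. The 8-week difference was -1.11 ± 0.17 (adjusted p = 0.0717), with -1.33 in females and -0.89 in males. Nebl, the nebulin-like protein nebulette, was the exception in this group. Its brightest probe set differed by 0.01, and its other tested probe sets by -1.23 and -0.49, so the probes for this gene did not give 1 answer.

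The Z-disc genes had a median difference of -1.63, and 5 of 7 had both 8-week pools below both controls. Tcap, or telethonin, which caps titin at the Z disc, read 6.78 and 7.80 at 8 weeks, 9.27 and 9.68 at 1 week, and 9.47 and 9.17 in controls. Its 8-week pools were well apart from the other 4, a difference of -2.03 ± 0.33 (adjusted p = 0.0757). Myoz2, a calcineurin-binding Z-disc protein, read 5.78 and 7.95 at 8 weeks, 8.45 and 9.45 at 1 week, and 8.76 and 8.81 in controls. Its difference was -1.92 ± 0.50 (adjusted p = 0.131), and the 8-week pools were far apart from each other.

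Other Z-disc genes spanned the same range. Csrp3, muscle LIM protein, differed by -1.82 (adjusted p = 0.197), and Actn2, the sarcomeric alpha-actinin that crosslinks actin, by -1.63 (adjusted p = 0.121). Ldb3, also called ZASP or cypher, differed by -1.09 (adjusted p = 0.102), with -0.78 to -0.20 at its other tested probe sets. Ankrd1, a stress-responsive ankyrin repeat protein that binds titin, differed by 0.10, with 0.45 in females and -0.25 in males. Its second tested probe set gave -0.10, with 0.65 in females and -0.85 in males. Xirp1, a filamin-binding protein of the intercalated disc, was below the expression filter and was not tested; its mean difference was 0.53, and its pools overlapped.

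Among the 5 energy genes the median difference was -1.37, and 4 had both 8-week pools below both controls. Ckm, muscle creatine kinase, which restores ATP at the filaments, read 5.27 and 7.61 at 8 weeks, 8.43 and 9.07 at 1 week, and 8.57 and 8.45 in controls. Ckmt2, its mitochondrial counterpart, read 5.44 and 8.01 at 8 weeks, 8.79 and 9.41 at 1 week, and 8.59 and 8.92 in controls. Both kinases stood lowest in the 8-week female pool, by -3.30 for Ckm and -3.15 for Ckmt2, with -0.83 and -0.91 in males. Their mean differences were -2.06 ± 0.59 for Ckm (adjusted p = 0.149) and -2.03 ± 0.57 for Ckmt2 (adjusted p = 0.145). Myoglobin, Mb, the oxygen store of muscle, differed by -1.37, with -2.47 in females and -0.26 in males. Its 8-week male pool (9.23) was above the female control (9.04), and leaving out 1 pool moved its difference between -2.59 and -0.14. The fatty acid-binding protein Fabp3 differed by -0.80 and the muscle enolase Eno3 by -0.61, and none of these 3 passed the threshold.

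Of the small chaperones and related proteins, Smpx and Hspb7 were lower in both 8-week pools, and Cryab was level at its brightest probe set. Smpx, a small muscle protein of the costamere, read 4.40 and 6.68 at 8 weeks, 7.67 and 7.75 at 1 week, and 7.11 and 6.88 in controls, a difference of -1.45 ± 0.64 (adjusted p = 0.26). Its female difference was -2.71 and its male difference -0.20. Hspb7, a small heat shock protein of heart muscle, read 8.53 and 8.27 at 8 weeks, 9.61 and 9.53 at 1 week, and 9.21 and 9.23 in controls. Unlike most of the set, it had a larger difference in males (-0.96) than in females (-0.68), and its mean was -0.82 ± 0.14 (adjusted p = 0.0829), with -2.08 and -0.96 at its other probe sets. Cryab, alpha-B-crystallin, which many tissues express, differed by -0.01. Its second tested probe set gave -0.28, with 0.16 in females and -0.73 in males.

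The membrane proteins and transcription factors had the role medians nearest 0, at -0.17 and -0.30. Corin, the protease that activates natriuretic peptides, read 4.98 and 5.42 at 8 weeks, 6.46 and 6.02 at 1 week, and 5.66 and 5.70 in controls. Its pools did not overlap, but the difference of -0.48 had an adjusted p of 0.306. Popdc2, a membrane protein of the Popeye family, read 7.60 and 6.93 at 8 weeks, 7.71 and 7.12 at 1 week, and 7.45 and 6.82 in controls, a difference of 0.13 that was smaller than the gap between the sexes.

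Tbx20 and Tbx5 are T-box factors of heart development. Tbx20 read 4.10 and 5.20 at 8 weeks, 5.33 and 6.39 at 1 week, and 4.65 and 5.5 in controls. Tbx5 read 8.40 and 8.26 at 8 weeks, 8.53 and 8.31 at 1 week, and 8.55 and 8.48 in controls. The differences of -0.42 for Tbx20 and -0.19 for Tbx5 did not pass (adjusted p = 0.182 and 0.442), and the second tested Tbx5 probe set gave -0.93. Of the 11 heart muscle genes with over 1 tested probe set, 9 had every one lower at 8 weeks in the mean.

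**Figure D2:**
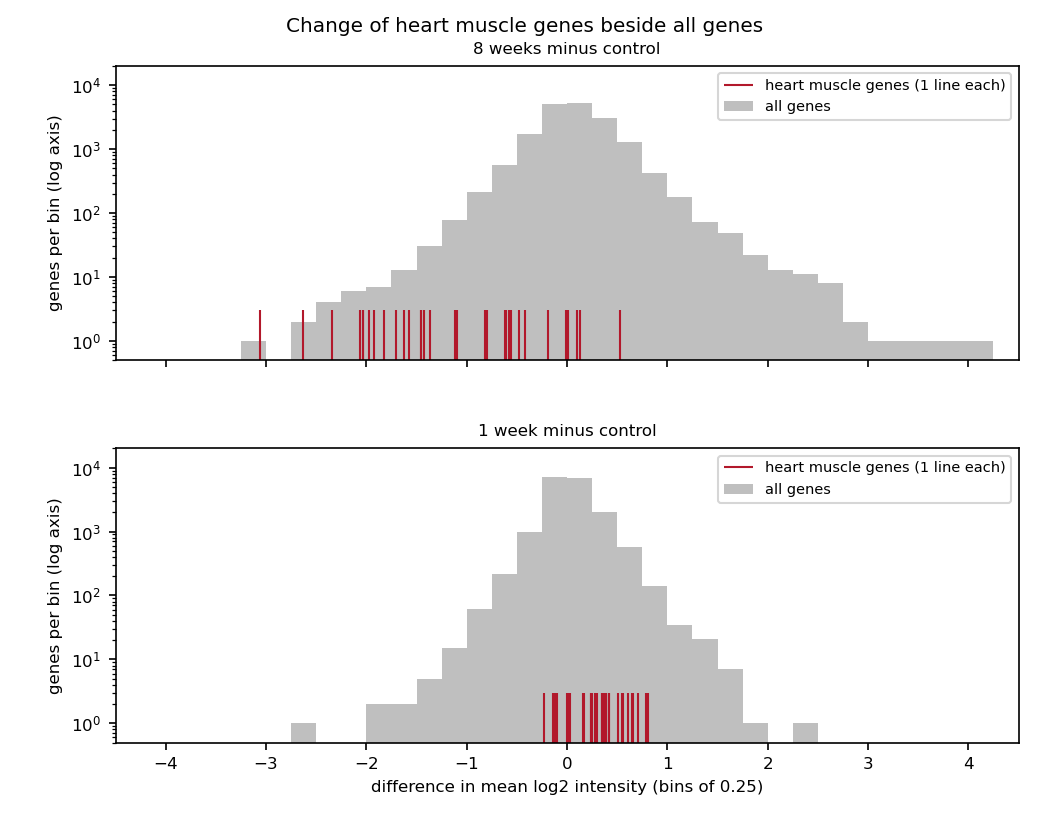
Number of genes (vertical log axis) by difference in mean log2 intensity from controls (horizontal axis), at 8 weeks above and at 1 week below; grey bars hold all 18193 genes and each red line is 1 of the 32 heart muscle genes. The red lines reach -3.06 at 8 weeks, the most negative of all genes, and lie between -0.23 and 0.81 at 1 week.

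The 8-week difference was larger in the female pools. The median difference at 8 weeks was -1.97 in females and -0.47 in males, against 0.04 and 0.03 over all genes. Of the 32 genes, 24 (75.0%) had the more negative difference in females, compared with 47.2% of all genes. A difference of 2-fold or more was present in females for 20 genes, against 2.28% of all genes, and in males for 4 (Ttn, Myh6, Myom2 and Tcap), against 0.835% of all genes. Both sexes were lower for 27 genes and higher for 2, and over all genes the shares were 20.8% lower in both and 36.0% higher in both. The 8-week female pool was the lowest of the 6 pools for 24 genes, and in 20 of these the 8-week male pool was second lowest. Over all genes the 8-week female pool was lowest in 13.7%, and lowest with the male pool second in 3.41%.

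The sex difference at 8 weeks was not tested by itself, since such a fit leaves no spread to test against. The limma term for the transgene effect in females minus males, over both durations, called 0 of 49 heart muscle probe sets and 0% of all tested probe sets, and its smallest adjusted p over the set was 1.00. One probe set, of Ttn, had an unadjusted p under 0.05, at -1.66 ± 0.57, against 2.35% of all probe sets. This fit joins the 1-week and 8-week pools, so the gap between the durations enters its spread. At the brightest probe sets its SE was 2.41 for Ttn and 2.22 for Myh6, against 0.39 and 0.37 for 8 weeks against control. The absence of calls therefore does not decide whether the sexes differed at 8 weeks. Each sex in each group was 1 pool, so a difference between sexes and a difference between pools cannot be told apart. The control pools also carry unlike labels, FVB/N in females and SM22-rtTA only in males. A difference between these controls cannot be told apart from sex either. The median of this term over the 32 genes was -0.80, and 0.20 without the 8-week female pool.

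**Figure D3:**
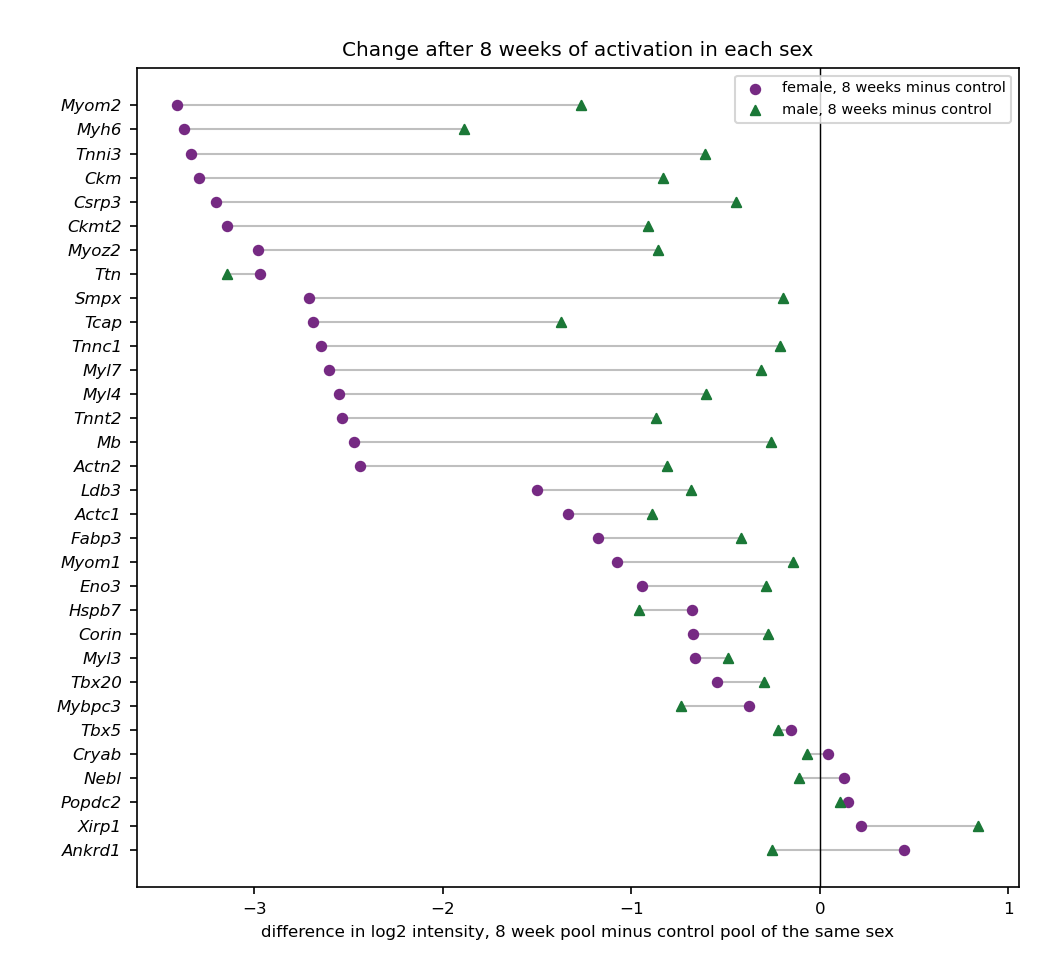
Difference in log2 intensity between the 8-week pool and the control pool of the same sex (horizontal axis) for each heart muscle gene, with circles for females and triangles for males. In the plot 24 of 32 genes have the more negative difference in females, and Ttn is nearly even with -2.97 in females and -3.15 in males.

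After 1 week the same genes did not stand below controls. The median difference was 0.35, with 0.13 in females and 0.50 in males, against 0.02 over all genes, and single genes ran from -0.23 for Ttn to 0.81 for Mb. Both 1-week pools were above both controls for 14 of 32 genes and below both for 0. Over all genes 13.4% had both 1-week pools higher, and 1309 of 18193 had both lower. Atrial light chains were among the higher ones, with 0.60 for Myl4 and 0.65 for Myl7, and Tbx20 was higher by 0.79. No heart muscle probe set passed: limma called 0 of 49 and 0% of all tested probe sets, with a smallest adjusted p of 0.894, and 2 heart muscle probe sets (1 each of Hspb7 and Tbx20) were higher at an unadjusted p under 0.05, against 5.5% of all in either direction. The median turned to -0.056 without the control male pool and was 0.66 without the control female pool. Markers of other tissues were also higher at 1 week, with medians of 0.91 for erythroid genes, 0.61 for adipose, 0.56 for mesothelial and 0.42 for skeletal muscle genes. In the skeletal list both 1-week pools were above both controls for 2 of 14 genes, a share near the 13.4% over all genes. They were the fast-fibre light chain Myl1 (1.66) and the fast troponin T Tnnt3 (1.78), which is named after its values were seen. Of the 14 genes 5 were tested, and Tnnt3 was below the expression filter. The part of these tissues in the 1-week difference was not tested.

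Between the durations the median gap was wider than against controls over both sexes and in males, but not in females. Against controls those medians were -1.24, -0.47 and -1.97. The median for 8 weeks minus 1 week was -1.65, with -1.90 in females and -1.18 in males, against 0.03 over all genes. Both 8-week pools were below both 1-week pools for 24 of 32 genes, against 13.4% of all genes, and 24 genes were lower by 2-fold or more in the mean, against 1.45% of all genes. Ttn differed by -2.83 between the durations, against -3.06 from controls, and Actc1 by -1.50, against -1.11. In limma 0 of 49 heart muscle probe sets and 0% of all tested probe sets passed (smallest adjusted p = 0.101), and 36 of 49, from 27 genes, were lower at an unadjusted p under 0.05, against 18.5% of all in either direction. The median was -1.08 without the 8-week female pool. Some other lists were lower between the durations too, with medians of -1.09 for 3 erythroid genes and -0.43 for mesothelial genes. Smooth muscle had -0.57, with both 8-week pools below both 1-week pools for 8 of 8 genes. For skeletal muscle the median was -0.35, with 0.19 in females and -0.77 in males, and 3 of 14 genes were below in that way. Thymus genes had -0.07, adipose genes 0.01 and ventricular genes 0.33. The part of these tissues in the difference was not tested.

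Genes outside the set, from lists of heart, muscle and other tissues, were read in the same way. Calcium handling genes came closest to the heart muscle set, with a median of -1.16 at 8 weeks, -1.48 in females and -0.67 in males, and 8 of 10 with both 8-week pools below both controls. Phospholamban, Pln, the brake on the calcium pump of the sarcoplasmic reticulum, read 4.91 and 5.05 at 8 weeks, 7.41 and 7.12 at 1 week, and 7.23 and 7.43 in controls at its called probe set. That probe set fell by 2.35 ± 0.18 on the log2 scale (limma adjusted p = 0.047), the 1 call among the 13 lists. The brightest Pln probe set differed by -1.61 (adjusted p = 0.0919), with -2.20 in females and -1.02 in males. Ryr2, the cardiac calcium release channel, differed by -2.53 ± 0.28 (adjusted p = 0.0523). Sarcolipin, Sln, the atrial inhibitor of the same pump, read 5.99 and 8.88 at 8 weeks, 9.97 and 10.01 at 1 week, and 9.25 and 9.48 in controls.

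Less of a shift was seen in the remaining heart and striated muscle lists. Another 22 measured sarcomere and striated muscle genes had a median of -0.29, with both 8-week pools below both controls for 11, and the intercalated disc, muscle energy and heart transcription factor lists had medians of -0.30, -0.21 and -0.24. The atrial and pulmonary vein list had a median of -0.33 over 6 genes, of which 3 were tested. Both 8-week pools were below both controls for 3 of the 6 and above both for 0. Single genes ran from -1.93 for Sln, which is also in the calcium handling list, to 0.48 for Nppa. Kcnj3 differed by -0.95 and was below the expression filter. Nppa, atrial natriuretic peptide, was at 3.95 in the female pool of every group. In males it read 8.12 at 8 weeks, 6.78 at 1 week and 7.16 in controls. Ventricular genes had a positive median, 0.32 over 5 genes. Myl2, the ventricular regulatory light chain, read 5.31 and 6.62 at 8 weeks, 3.95 and 4.41 at 1 week, and 4.15 and 3.95 in controls, and was below the expression filter. Myh7, beta-myosin heavy chain, read 8.67 and 8.63 at 8 weeks, 8.40 and 8.29 at 1 week, and 8.49 and 8.16 in controls (difference 0.32, adjusted p = 0.269), and Irx4 was at 3.95 in all 6 pools.

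Genes of smooth muscle, the tissue in which the transgene is driven, were also lower at 8 weeks. Their median was -0.46, both 8-week pools were below both controls for 6 of 8, and none passed the threshold. Their summed intensity was 7461 and 7018 at 8 weeks, 11578 and 11188 at 1 week, and 10360 and 8652 in controls; the heart muscle set summed to 10158 and 16380 at 8 weeks, 26962 and 32869 at 1 week, and 24162 and 24455 in controls. Myh11, smooth muscle myosin heavy chain, differed by -1.51 (adjusted p = 0.127), with -0.98 in females and -2.04 in males. Over the list the order was the other way, with medians of -0.53 in females and -0.31 in males, and 6 of 8 genes had the more negative difference in females. Cnn1, a calponin that binds actin, differed by -0.76 in females and -0.45 in males. Whether the smooth muscle difference has a part in the heart muscle result was not tested.

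At 8 weeks, markers of other tissues that a lung sample can hold had medians near 0 against controls, though single genes went both ways. Skeletal muscle genes had a median of 0.05 over 14 genes, of which 5 were tested. Thymus genes had 0.02 over 5, of which 1 was tested and 1 was at 3.95 in all pools, and erythroid genes -0.03 over 3, of which 2 were tested. Adipose genes had 0.03 over 5, of which 3 were tested, and ran from -1.20 for Adipoq to 1.20 for Cidec. The 6 mesothelial genes, all tested, had a median of 0.03, with 0.35 in females and -0.39 in males. In the adipose list the 8-week female pool had the lowest sum, with 247, and the 8-week male pool 454, against 547 and 431 at 1 week and 288 and 318 in controls. Adipoq, adiponectin of fat cells, read 4.60 and 7.26 at 8 weeks, 8.31 and 7.48 at 1 week, and 7.02 and 7.24 in controls. How much heart tissue was attached to each lung was not tested, since no measure of it was given.

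**Figure D4:**
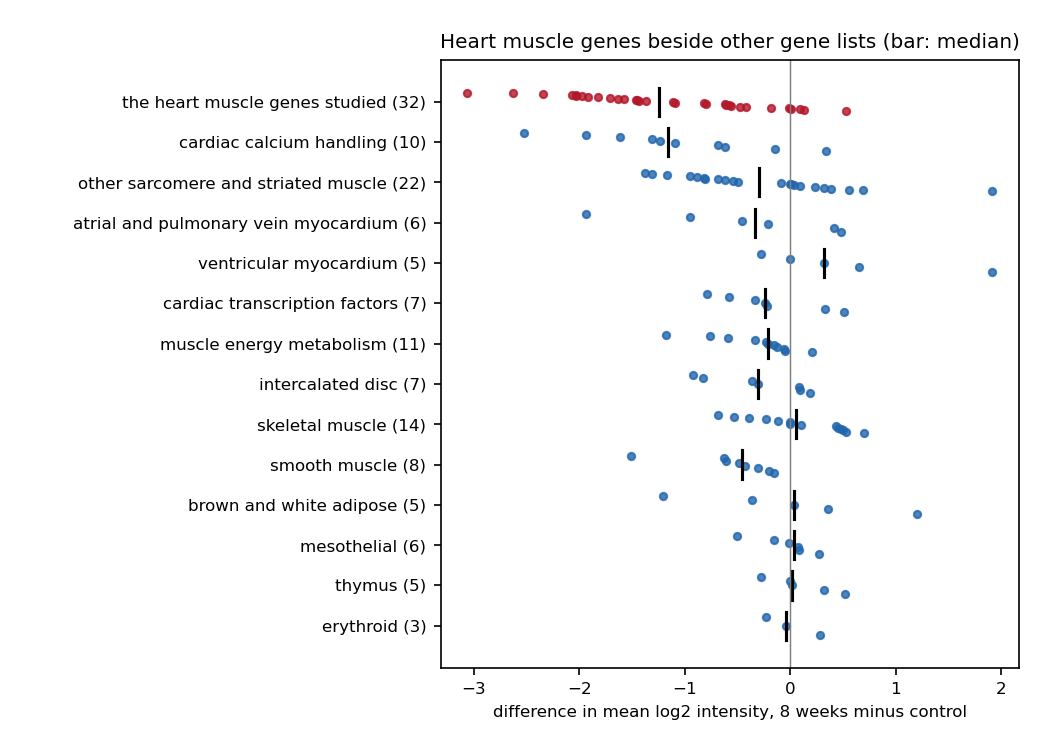
Difference in mean log2 intensity, 8 weeks minus control, for each measured gene of the heart muscle set and of 13 other lists, with a bar at each median. The heart muscle set (median -1.24) and calcium handling (-1.16) lie furthest to the left, and the ventricular list (0.32) lies to the right of 0.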

How the data were processed

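The authors deposited linear intensities, 1 per probe set and pool, for 45037 probe sets; the software that summarised the probes is not given in the sources used here. Of these, 34945 had 1 gene symbol in the platform annotation, 932 several and 9160 none. In R 4.3.3 with limma 3.58.1, the 6 arrays were quantile-normalised, a floor was set at the 20th percentile of all values (15.5), and values were put on the log2 scale. Probe sets with a mean above the 40th percentile of means (log2 5.15) were kept, 27022 in all. The model had group and sex terms, with 2 residual degrees of freedom and 2.77 prior ones that limma took from all kept probe sets. A second model was for transgene by sex, and Benjamini-Hochberg adjustment ran over all kept probe sets at 0.05. A gene took its brightest probe set. Each gene of the set was named once; values in every pool were given for genes with a call and for the 2 largest differences of each role; those of Actc1 were added after its values were seen. Other lists gave up to 3 genes. The heart muscle genes and all lists were chosen with earlier results of these data known. The test was also run on simulated data with independent values, a common variance, no sex effect and no floor. Those settings differ from these data, so that run does not measure error rates here. Motifs were searched in the RefSeq promoter table.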

Additional observations from a re-analysis of the deposited data

Results flagged for a closer look

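Of the 32 heart muscle genes, 16 (50%) were above the same-sex control in both 1-week pools and below it in both 8-week pools, a pattern shared by 745 of all 18193 genes (4.09%). The 2 durations were set against the same control pools. The difference for 8 weeks minus 1 week was -2.53 for Tnni3, -2.0 for Tnnt2, -1.79 for Tnnc1 and -1.50 for Actc1 in the thin filament. It was -2.18 for Myl4, -2.11 for Myl7 and -1.0 for Myom1 in the thick filament, and -2.28 for Actn2 at the Z disc. Among the energy genes it was -2.38 for Ckmt2, -2.18 for Mb, -1.22 for Fabp3 and -1.03 for Eno3. For Smpx it was -2.17, for Hspb7 -1.17, for Corin -1.03 and for Tbx20 -1.21. The limma test of 8 weeks against 1 week called none of these 16, with 0 of 49 heart muscle probe sets past the threshold and 36 at an unadjusted p under 0.05.

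At its brightest probe set Cryab differed from controls in opposite directions in the sexes at both durations, but by little. The differences in females and males were 0.04 and -0.07 at 8 weeks, and 0.08 and -0.01 at 1 week. The transgene effect in females minus males was 0.10, and 0.57 at the second tested probe set. The limma test of that difference did not pass at either probe set.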

How the results depend on the processing

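The 2 heart muscle probe sets called lower at 8 weeks became 7 with intensities as deposited, 7 with median centring, 4 with a floor at the 40th percentile, 8 with log2(value + 16), 7 with a filter at the 60th percentile and 15 with trend and robust variance. The count was 4 genes with 1 value per gene, and 0 without the filter, without probe sets whose names carry a suffix, and without the sex term (no replicate block). Leaving out 1 pool gave 0 to 22. Between the durations the count of 0 became 3 with the filter at the 60th percentile, 4 with 1 value per gene and 15 with trend and robust variance. Counts at 1 week and for sex were 0 throughout. For these settings the share of all tested probe sets called was not counted. A larger count may therefore go with more calls over all probe sets. With 1 pool left out, the median ran from -1.82 to -0.57 at 8 weeks, -0.056 to 0.66 at 1 week, -2.07 to -1.08 between durations and -1.51 to 0.20 for females minus males; no estimate of the last was possible without a control pool. Same-sex pools deviated together, with correlations of 0.484 to 0.641 between groups.

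Over 517 gene-level alternatives, 443 kept direction and side of the threshold, 46 newly passed, 16 no longer passed and 12 turned sign, all in 4 genes near 0. Popdc2 was -0.073 as deposited. Ankrd1 was -0.018 as deposited, -0.0014 with 1 value per gene and -0.23 to 0.42 with 1 pool left out. Cryab was 0.16 with median centring and -0.064 to 0.036 with 1 pool left out. Nebl was -0.065 as deposited, -0.57 with 1 value per gene and -0.10 to 0.12 with 1 pool left out. The causes were not tested. With 2 pools a group, values at the lower limit bound the size of a decrease only from below.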
